A study of Mus musculus with 12 samples.

Results

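Infarcted hearts that carried a vector for Irx3 were compared with uninfarcted hearts that carried a control vector, across all genes, to describe what differed from the sham-operated left ventricle when Irx3 was overexpressed. The comparison used 8 of the 12 libraries, 4 per group, and 15742 of the 56748 genes in the table had enough counts to be tested. All mice were wild-type C57BL/6J, of an age that the sources used here do not give, and each library came from the left ventricle of 1 mouse taken 14 days after surgery. Each mouse received AAV9, an adeno-associated virus serotype with a preference for heart muscle, by tail vein. In the sham group (AAV9_Ctrl_Sham) the vector was the control and the surgery a sham, and in the Irx3 group (AAV9_Irx3_MI) the vector carried Irx3 and the surgery was ligation of the left anterior descending coronary artery, which causes infarction. The remaining group (AAV9_Ctrl_MI) had the control vector with infarction and served for reference. Sham surgery was never combined with Irx3 vector, so the comparison with sham changes vector and surgery together. The sources used here give neither the promoter that drives Irx3 nor the part of the ventricle sampled (scar, border or remote muscle).

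Irx3 is 1 of the Iroquois homeobox genes, whose transcription factors pattern the heart, and it is known for its role in the fast conduction fibres that spread the electrical impulse through the ventricle. After an infarct, inflammatory cells clear dead muscle, activated fibroblasts lay down a collagen scar, and the surviving muscle returns in part to a fetal programme while it lowers its use of fatty acids. The questions asked of the data were how many of these changes were present with Irx3 vector, and which genes differed from sham with Irx3 vector in a way not seen with control vector.

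Irx3 itself was read first, as a check of the labels. Its normalised read count (CPM, scaled to library size with TMM factors) was 314, 513, 285 and 462 in the 4 Irx3 libraries and 25.9, 25.6, 25.9 and 20.5 in the 4 sham libraries. The groups were apart, with every Irx3 library far above the highest sham library. The means were 393 ± 111 against 24.5 ± 2.65 CPM (SD, n = 4), an increase of 4.01 on the log2 scale (SE 0.25, edgeR quasi-likelihood test, Benjamini-Hochberg adjusted p = 3.38e-07; two-sided exact permutation p = 0.0286, the smallest that 4 against 4 allows). The counts do not tell vector transcript from the mouse gene's own. Of the other Iroquois genes, Irx1 fell (log2 fold change -1.95, adjusted p = 0.00316, or -2.600 without Irx3 replicate 4). Irx2 did not pass the test at 0.30 (95% interval -1.06 to 1.65). With control vector after infarction 2 of the 5 Iroquois genes tested were lower than sham, the lowest at -1.58. In the direct comparison with control vector 0 of the 5 were lower, the lowest at -0.37, so Irx1 was not called below control vector. Irx4, a ventricular gene, stood at 30.1, 55.5, 35.5 and 63.2 CPM with Irx3 vector and at 33.8, 36.5, 35.8 and 32.9 CPM in sham, which overlap. Irx4 (0.41) and Irx5 (0.59) missed the threshold, and both passed it after the correction for GC content described below (0.98 and 1.15, adjusted p = 0.00764 and 0.00768). Irx5 also passed without sham replicate 2, at 0.99.

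Total counts per library were 15966982 to 18441830 in sham and 13352604 to 19236721 with Irx3 vector. The labels name the cell type as cardiomyocytes, but transcripts of many other ventricular cell types were present in every group. The 15 cardiomyocyte markers together held 138918 to 159224 CPM in sham and 45733 to 81476 CPM with Irx3 vector, the 19 endothelial markers 4778 to 5486 and 1928 to 2376 CPM, and the 21 macrophage and monocyte markers 572 to 699.7 and 1053 to 1911 CPM. The libraries were therefore read as whole left ventricle, in which fewer cells of a type and less RNA per cell cannot be told apart. Mitochondrially encoded genes took 6.15% ± 1.72 of counts in sham and 13.7% ± 3.70 with Irx3 vector (SD, n = 4, two-sided exact permutation p = 0.0286), and 2.72% ± 2.03 in infarcted hearts with control vector. Irx3 replicate 4 had the highest share of all libraries.

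Against sham, 9904 genes were called at an adjusted p under 0.05, 62.9% of those tested, of which 5545 were higher (35.2%) and 4359 were lower (27.7%). The median log2 fold change over all genes tested was 0.12. Fold changes followed the base composition of the transcripts. With genes divided into 10 equal bins by GC content, 1162 genes of the lowest bin (22.1% to 43.0%) were higher and 33 lower, and in the highest bin (58.1% to 75.5%) 239 were higher and 730 lower. The median log2 fold change ran from 1.12 in the lowest bin to -0.47 in the highest. A correction that removes each library's own dependence on GC content left 8397 of 15182 genes called (55.3%), 4915 higher (32.4%) and 3482 lower (22.9%). Of 9612 calls that could be tested both ways, 6535 kept their direction, 2985 were lost and 92 turned, and 1770 were gained. Without overlap between the libraries, 33.2% of genes lay above sham and 27.6% below. The cause of the dependence was not tested, so the corrected value stands beside each fitted fold change and list median against sham below that it moves by over 1.5-fold. Where the comparison with control vector after infarction is given, 49.3% of genes were called uncorrected (25.2% higher and 24.1% lower with Irx3 vector) and 28.8% corrected (14.9% higher and 13.9% lower). That comparison shares the Irx3 libraries, and infarction with control vector against sham (48.7% called, 26.3% higher and 22.4% lower; 53% corrected, 29.8% higher and 23.2% lower) shares the sham libraries, so values from them are set side by side without being counted as separate evidence.

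**Figure D1:**
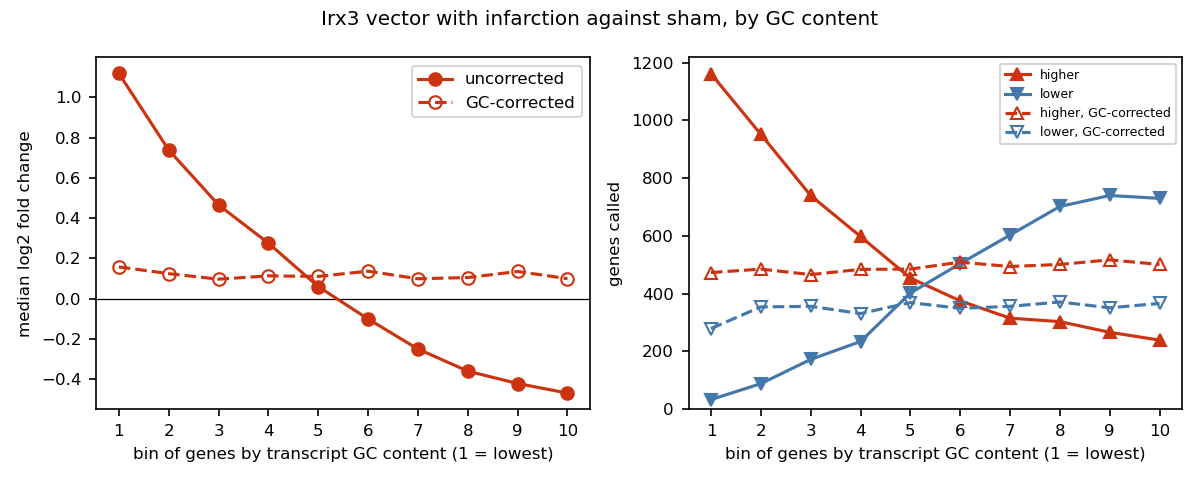
Irx3 vector with infarction against sham in 10 equal bins of genes by transcript GC content, bin 1 the lowest. Left, the median log2 fold change of each bin, which falls from 1.12 to -0.47 uncorrected (filled) and lies close to level after the correction (open). Right, the number of genes called higher and lower in each bin, uncorrected (solid lines) and corrected (dashed lines).

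Scar genes were far above sham with Irx3 vector. Of 19 fibrillar collagens and collagen partners 18 were higher and 0 lower, with a median log2 fold change of 3.37 (2.71 without Irx3 replicate 1), beside 0.12 over all genes tested. Of 26 matrix glycoproteins and elastic fibre genes 22 rose and 1 fell, with a median of 2.82, and of 10 small leucine-rich proteoglycans, which coat collagen fibrils, 9 rose and 0 fell, with a median of 2.70. Against control vector after infarction, 0 of the 19 collagen genes were higher and 5 lower (1 and 0 GC-corrected). Of the 26 glycoprotein genes 0 were higher and 15 lower (1 and 7 GC-corrected), and of the 10 proteoglycans 1 and 4 (0 and 6 GC-corrected). Activated fibroblast markers were higher than sham in 13 of 14 genes (median 3.99, or 3.17 without Irx3 replicate 1), and against control vector 1 was higher and 2 lower. Their summed level was 1978 to 16288 CPM with Irx3 vector and 419.8 to 714 CPM in sham, so the Irx3 libraries differed from each other by several-fold while none reached down to sham.

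Postn encodes periostin, a matrix protein that marks activated fibroblasts. Its level was 20.4, 20.2, 11.6 and 14.8 CPM in sham and 2018, 678, 1334 and 535 CPM with Irx3 vector. The groups did not overlap, with Irx3 replicates 1 and 3 above replicates 2 and 4 (log2 fold change 6.09, SE 0.45, adjusted p = 1.01e-06; 5.24 GC-corrected). Against control vector after infarction its difference was 0.21 and did not pass the test (adjusted p = 0.644). Cthrc1, a secreted protein of fibroblasts in the scar, had 0 to 0.139 CPM in sham and 52.96, 11.1, 22.7 and 2.66 CPM with Irx3 vector. All 4 libraries were above sham, over a wide range (log2 fold change 7.94, SE 1.03, adjusted p = 3.36e-05; 7.01 without Irx3 replicate 1). Among further collagens, Col8a1 rose by 4.70 and Col12a1 by 5.60 (4.97 without Irx3 replicate 1). Thbs4, a thrombospondin of the matrix, rose by 5.69 (6.37 without sham replicate 2), and Mfap4, a protein of elastic fibres, by 4.25. The proteoglycan genes Ogn and Lum rose by 2.601 and 3.91, or 1.31 and 3.05 GC-corrected. Meox1, a homeobox gene of activated fibroblasts, rose by 3.03, and its excess over control vector was 0.52 (adjusted p = 0.0408).

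Some of the largest rises were of genes with almost no counts in sham, for which only a bound or a counting interval can be given. Cemip, a hyaluronan-degrading protein, had no count in sham and 810 counts over the Irx3 libraries, at least 220-fold higher if 3 counts are taken as the floor for the group total. B4galnt3 was at least 34.5-fold higher by the same floor. Col6a5 had 1 count in sham and 504 with Irx3 vector, a ratio of 411 (95% counting interval 73.4 to 16252), and Col11a1 had 3 and 1122, a ratio of 305 (104 to 1479.9). C1qtnf3 had 1 and 673, a ratio of 548 (98.1 to 21690.5). The sham counts of Col6a5 and C1qtnf3 came from sham replicate 1 and those of Col11a1 from sham replicate 2. Irx3 replicate 1 carried much of several of these genes: Col11a1 stood at 49.6, 2.73, 3.16 and 0.228 CPM in the 4 Irx3 libraries and C1qtnf3 at 26.8, 1.92, 4.74 and 0.228 CPM. Without that library the fitted log2 fold changes of Col11a1 and C1qtnf3 were 5.15 and 6.57, those of Cemip and B4galnt3 were 9.12 and 7.20, and that of Col6a5 was 7.25. These fitted values depend on the prior count and are no bounds, and all 5 genes still passed the test. Spp1, which encodes osteopontin, was at 475, 25.6, 15.3 and 2.74 CPM with Irx3 vector and at 0.0702, 1.26, 0 and 0 CPM in sham. Its rise of 8.50 was 5.31 without Irx3 replicate 1 and 12.05 without sham replicate 2.

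Matrifibrocyte markers, genes of the resting fibroblasts of a mature scar with cartilage-like and tendon-like products, were higher than sham in 7 of 9 genes (median 3.39). With control vector after infarction their median difference from sham was 6.28. In the direct comparison 7 of 9 were below control vector with Irx3 vector and 0 above it (6 and 0 GC-corrected). Fmod encodes fibromodulin, a regulator of collagen fibril thickness. It was at 0.562, 0.691, 0.546 and 2.09 CPM in sham, 177, 61.9, 106 and 15.05 CPM with Irx3 vector and 358, 261, 547 and 656 CPM with control vector after infarction. All Irx3 libraries lay above sham and below every infarcted library with control vector (log2 fold change 6.54, SE 0.75, adjusted p = 1.38e-05 against sham; -2.33, adjusted p = 0.00435 against control vector). Without Irx3 replicate 1 the difference from sham was 5.92, and without sham replicate 4 it was 7.20. Itgbl1 rose by 3.35 against sham (2.33 GC-corrected) and was -1.68 against control vector (adjusted p = 0.00643), and Cilp rose by 5.17, with -1.10 against control vector (adjusted p = 0.0399, 0.19 GC-corrected).

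Collagen processing and crosslinking genes had a median of 1.13, 12 of 17 higher and 2 lower. Loxl2, a crosslinking oxidase, rose by 3.24, while P4ha2, a collagen prolyl hydroxylase, fell by 0.94 on the log2 scale (adjusted p = 1.75e-05). Against control vector, 10 of the 17 were lower with Irx3 vector and 0 higher (5 and 0 GC-corrected). Matrix proteases and their inhibitors were higher than sham in 15 of 19 genes and lower in 2. Against control vector 3 of the 19 were higher and 6 lower (3 and 5 GC-corrected). Mmp12, the macrophage elastase, stood at 139, 24.5, 4.25 and 4.41 CPM with Irx3 vector and at no more than 0.565 CPM in sham. The 4 libraries were above every sham library and every infarcted library with control vector, whose highest value was 3.81 CPM. Its rise over sham was 7.95 (7.19 GC-corrected; 5.95 without Irx3 replicate 1; 10.46 without sham replicate 2) and its rise over control vector 4.22 (adjusted p = 0.00525). Mmp13, a collagenase, stood at 4.097, 1.48, 1.36 and 1.596 CPM against 0.1404, 0.126, 0.0683 and 0.139 CPM in sham, a rise of 4.10 (3.24 GC-corrected; 3.51 without Irx3 replicate 1), and was 4.36 above control vector (adjusted p = 0.000152). Timp4, an inhibitor of such proteases made by heart muscle, fell by 4.07 on the log2 scale.

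Of 15 resident fibroblast markers 6 were higher than sham (40%, beside 35.2% of all genes) and 3 lower (20%, beside 27.7%), with a median of 0.47. Against control vector after infarction 0 were higher and 10 lower (0 and 7 GC-corrected). Pdgfra, a receptor of fibroblasts in general, rose by 1.47, and Mfap5, a microfibril protein, by 2.80. Scara5, a marker of adventitial fibroblasts, was at 6.27, 18.96, 19.2 and 18.1 CPM with Irx3 vector and 59.6, 67.6, 59.8 and 62.2 CPM in sham, below every library of both other groups, and Irx3 replicate 1 was lowest (log2 fold change -1.997, SE 0.30, adjusted p = 8.6e-05). TGF-beta signalling, the main drive of fibroblast activation, had 10 of 20 genes higher (50%, beside 35.2% of all genes) and 2 lower (10%, beside 27.7%). After GC correction 15 were higher and 3 lower, where all genes gave 32.4% and 22.9%. Against control vector after infarction 3 of the 20 were higher and 10 lower (1 and 4 GC-corrected). Tgfb2, 1 of the TGF-beta ligands, was at 6.11, 4.21, 4.71 and 4.24 CPM in sham and 62.9, 86.3, 80.01 and 67.4 CPM with Irx3 vector. The Irx3 libraries lay above every library of both other groups, 3.94 above sham (SE 0.19, adjusted p = 7.51e-08) and 1.35 above control vector (adjusted p = 6.8e-05). Tgfbr3, a co-receptor that presents this ligand, fell by 1.06 on the log2 scale.

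Inflammatory genes were higher than in sham hearts as a group. Interferon response genes rose in 40 of 42 cases and fell in 0, with a median of 2.89 (2.27 without Irx3 replicate 3), and with control vector after infarction the median was 2.73. In the direct comparison 7 were higher with Irx3 vector and 7 lower, and 2 and 1 GC-corrected. Interferons act through factors that bind the interferon-stimulated response element, GAAA and GAAA with 2 free bases between them, here searched as those 10 letters with any middle pair on both strands in the 250 bases upstream of the gene start. It was present in 15 of the 29 interferon response genes with an upstream sequence in the RefSeq table of mouse build GRCm38.p6 (51.7%), in 3.30% of the 11348 tested genes with such a sequence and in 2.98% of all upstream windows. A match is a description of letters and not a bound site. The windows of 2 such genes are shown because both genes are described next, with the matched bases in capitals; Isg15 holds 3 overlapping matches. They are, 5′ to 3′ on the gene's strand, Cxcl10 at chr5:92348890-92349139, minus strand, and Isg15 at chr4:156200819-156201068, minus strand.
Cxcl10: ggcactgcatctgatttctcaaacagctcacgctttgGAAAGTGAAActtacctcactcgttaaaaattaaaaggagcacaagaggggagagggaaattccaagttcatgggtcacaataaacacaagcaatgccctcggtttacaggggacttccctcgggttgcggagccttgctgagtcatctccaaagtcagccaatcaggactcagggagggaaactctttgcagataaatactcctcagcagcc
Isg15: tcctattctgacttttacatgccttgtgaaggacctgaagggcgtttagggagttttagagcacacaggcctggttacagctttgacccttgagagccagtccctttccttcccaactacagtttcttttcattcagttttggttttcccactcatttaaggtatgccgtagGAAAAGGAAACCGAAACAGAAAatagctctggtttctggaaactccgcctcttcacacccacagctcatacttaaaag

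Cxcl10, an interferon-induced chemokine that attracts T cells, was at 0.0702, 0.314, 0 and 0.209 CPM in sham and 5.13, 6.18, 18.95 and 7.601 CPM with Irx3 vector. The groups were apart, with Irx3 replicate 3 highest (log2 fold change 5.90, SE 0.63, adjusted p = 8.75e-06; 5.26 without that library; 6.56 without sham replicate 2). Isg15, a ubiquitin-like protein induced by interferon, was at 2.598, 3.39, 2.53 and 2.99 CPM in sham and 13.7, 11.8, 30.8 and 10.1 CPM with Irx3 vector, again with replicate 3 highest (log2 fold change 2.53, SE 0.34, adjusted p = 3.79e-05). The antiviral GTPase gene Mx1 had 8.59, 8.67, 24.5 and 5.55 CPM with Irx3 vector and at most 0.417 CPM in sham, a rise of 6.07 (5.39 without Irx3 replicate 3; 6.93 without sham replicate 4). Irf7, which controls interferon production, rose by 3.21. Irx3 replicate 3 stood highest of its group in all 3 of Cxcl10, Isg15 and Mx1.

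Of 33 cytokines and chemokines listed, 27 had enough counts in at least 1 group to be tested. Of these 27, 25 were higher and 0 lower (median 3.78), or 23 and 0 GC-corrected. Genes near silent in sham enter such a count only through a group where they are high. Macrophage and monocyte markers were higher in 16 of 21 and lower in 1 (median 1.49), and in the direct comparison 3 were above control vector with Irx3 vector and 9 below (2 and 4 GC-corrected). Cx3cr1, the fractalkine receptor of monocytes and resident macrophages, was at 0.351, 0.628, 1.71 and 0.278 CPM in sham, 8.28, 9.82, 10.5 and 19.01 CPM with control vector after infarction and 44.8, 24.5, 45.2 and 20.4 CPM with Irx3 vector. Every Irx3 library was above every library of both other groups. The difference was 5.49 from sham (SE 0.50, adjusted p = 2.92e-06; 6.28 without sham replicate 3) and 1.502 from control vector (adjusted p = 0.0058). Ccr2, the receptor that recruits monocytes from blood, was at 34.2, 12.5, 41.6 and 27.9 CPM against 0.1404, 0.816, 0.751 and 0.487 CPM in sham, a rise of 5.69 (4.49 GC-corrected). Its difference of 2.10 from control vector fell to 0.66 and lost its call after GC correction (adjusted p = 0.301). The Fc receptor gene Fcgr1 rose by 4.51 (3.90 without Irx3 replicate 3). Genes of lipid-associated macrophages were higher in 10 of 14 and lower in 2, with Trem2, their lipid-sensing receptor, up by 3.69 and Lgals3, which encodes galectin 3, by 3.61 (4.22 GC-corrected; 2.93 without Irx3 replicate 1).

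All 16 tested T and NK cell markers were higher than sham, with a median of 4.40, or 4.35 with the 5 genes at 0 counts in sham put at their bound, and 5.15 without sham replicate 2. Only genes with enough counts in at least 1 group were tested, and of the 18 listed 2 were not. Their summed level was low in both groups, 28.2 to 55.6 CPM with Irx3 vector and 2.67 to 3.64 CPM in sham, and 14.7 to 41.9 CPM with control vector after infarction. Lck, the kinase of the T cell receptor, rose by 4.33 and Il2rb, an interleukin receptor chain of T and NK cells, by 3.10. Of 14 B and plasma cell markers listed 10 were tested, of which 9 rose and 1 fell. Ighm rose by 3.97 and Igkc by 4.85 (4.25 without Irx3 replicate 1). Ighg2b had no count in sham and 267 with Irx3 vector, at least 72.5-fold higher. Without Irx3 replicate 3 its adjusted p was 0.0468, and its call was lost with no filter on low counts (adjusted p = 0.108); reads of immunoglobulin constant genes can be shared between near-identical copies. MHC class II presentation genes rose in 8 of 8, with Cd74, the invariant chain, up by 1.90. Complement genes rose in 15 of 18, with the anaphylatoxin receptor C3ar1 up by 3.68 (2.92 GC-corrected). Of 13 neutrophil markers listed 6 were tested, of which 2 were higher and 0 lower, and none of them was called without Irx3 replicate 1.

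In the muscle, more genes of the fetal programme were higher than lower, and many adult contractile genes were lower. Fetal and wall-stress genes were higher in 9 of 17 (52.9%, beside 35.2% of all genes) and lower in 1 (5.9%, beside 27.7%). Their median was 0.99, beside 2.40 with control vector after infarction. The direct comparison found 7 of them lower and 1 higher with Irx3 vector (5 and 1 GC-corrected). Nppb encodes brain natriuretic peptide, a hormone released by stretched ventricular muscle. It was at 22.5, 31.02, 13.4 and 24.96 CPM in sham and 323, 343, 302 and 429 CPM with Irx3 vector, apart in every library (log2 fold change 3.93, SE 0.28, adjusted p = 7.81e-07), and its difference of -0.52 from control vector did not pass the test (adjusted p = 0.0906; -0.79 and 0.0229 GC-corrected). Nppa, the atrial natriuretic peptide gene, was at 18.5, 97.5, 13.5 and 19.96 CPM in sham and 599.6, 975.0, 662 and 139 CPM with Irx3 vector. Its rise of 3.99 was 5.09 without sham replicate 2, the highest sham library. Gdf15, a stress hormone of the TGF-beta family, was at 1.97, 2.01, 1.71 and 1.74 CPM in sham, 19.4, 15.7, 20.6 and 12.4 CPM with Irx3 vector and 184, 48.7, 183 and 135 CPM with control vector after infarction. The 3 groups were fully apart, with Irx3 vector in between (3.19 against sham, adjusted p = 1.69e-05; -3.01 against control vector, adjusted p = 3.96e-05).

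Myh7, the slow myosin heavy chain of the fetal ventricle, was at 567, 563, 596 and 486 CPM in sham and at 1387, 5821, 5238 and 686 CPM with Irx3 vector. Irx3 replicates 2 and 3 were several-fold above replicates 1 and 4, and replicate 4 stood closest to sham (log2 fold change 2.57, SE 0.53, adjusted p = 0.000989). Myh6, the fast adult form, was at 45249, 52352, 56068 and 49333 CPM in sham and 12507, 19826, 11897 and 20259 CPM with Irx3 vector (log2 fold change -1.65, SE 0.37, adjusted p = 0.00179), and its difference from control vector after infarction did not pass the test (-0.18). Cardiomyocyte markers were lower in 10 of 15 genes and higher in 1, with a median of -1.19 beside -1.10 with control vector, and 8 lower and 0 higher after GC correction. Sarcomere and Z-disc genes were lower in 14 of 27 (51.9%, beside 27.7% of all genes) and higher in 3 (11.1%, beside 35.2%). Tnnt2, cardiac troponin T, fell by 1.61 on the log2 scale and the titin-capping gene Tcap by 1.97. Of these 27 genes, 9 were lower than with control vector uncorrected and 1 after GC correction.

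Genes of excitation and contraction coupling moved in both directions, in shares near those of all genes tested. Of 19 calcium handling genes 7 were higher (36.8%, beside 35.2% of all genes) and 6 lower (31.6%, beside 27.7%), or 3 and 6 GC-corrected, and without sham replicate 3 the higher count was 4. Ryr2, the calcium release channel of the sarcoplasmic reticulum, was at 3275, 3351, 3577 and 3607 CPM in sham and 674, 1023, 905 and 969 CPM with Irx3 vector, lower in every library (log2 fold change -1.95, SE 0.27, adjusted p = 4.85e-05; -2.58 GC-corrected). Cacna1c, the L-type calcium channel, fell by 1.45 on the log2 scale. Cacna1h, a T-type calcium channel of the fetal heart and the conduction system, went the other way. It was at 21.4, 21.6, 20.3 and 15.7 CPM in sham, 19.5, 19.6, 9.17 and 18.7 CPM with control vector after infarction and 53.01, 70.9, 48.4 and 71.4 CPM with Irx3 vector, above every library of both other groups. It was 1.62 above sham (adjusted p = 5.04e-05) and 1.86 above control vector (adjusted p = 6.26e-05). Of 25 sodium and potassium channel genes 17 were lower and 3 higher. Kcnv2, a modifier subunit of potassium channels, was at 32.2, 25.9, 36.8 and 28.2 CPM in sham and 0.938, 2.39, 2.29 and 1.596 CPM with Irx3 vector, which overlapped the 1.903, 1.65, 1.54 and 0.413 CPM of infarcted hearts with control vector. It fell by 4.08 on the log2 scale against sham (SE 0.36, adjusted p = 2.4e-06). Kcna5, which carries an ultrarapid repolarising current, fell by 2.22 on the log2 scale.

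Among 17 gap junction and intercalated disc genes 4 were higher (23.5%, beside 35.2% of all genes) and 7 lower (41.2%, beside 27.7%). Without Irx3 replicate 3 the higher count was 2. Gja1 encodes connexin 43, the main channel between ventricular muscle cells. It was at 146, 187, 147 and 149 CPM in sham, 157, 128, 166 and 185 CPM with control vector after infarction and 269, 377, 352 and 476 CPM with Irx3 vector, so all Irx3 libraries were highest (log2 fold change 1.23, SE 0.18, adjusted p = 7.39e-05 against sham; 1.21, adjusted p = 0.000187 against control vector). Cxadr, a cell adhesion protein of the intercalated disc that is also a virus receptor, rose by 1.45 against sham and by 1.97 against control vector (adjusted p = 1.2e-05). Jup, plakoglobin of the desmosome, fell by 1.22 on the log2 scale. Cardiac transcription factors were lower in 11 of 19 (57.9%, beside 27.7% of all genes) and higher in 4 (21.1%, beside 35.2%). Tbx5 fell by 1.95 on the log2 scale, beside a difference of -1.95 with control vector, and Hand2 fell by 1.80 (GC-corrected -1.20). Prox1, a homeobox gene of muscle and lymphatic vessels, was at 60.5, 60.7, 65.5 and 60.1 CPM in sham, 26.1, 35.4, 26.9 and 15.2 CPM with control vector after infarction and 74.9, 108, 96.5 and 113 CPM with Irx3 vector. It stood highest with Irx3 vector and lowest with control vector (0.67 against sham, adjusted p = 0.011; 1.92 against control vector, adjusted p = 3.57e-05).

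**Figure D2:**
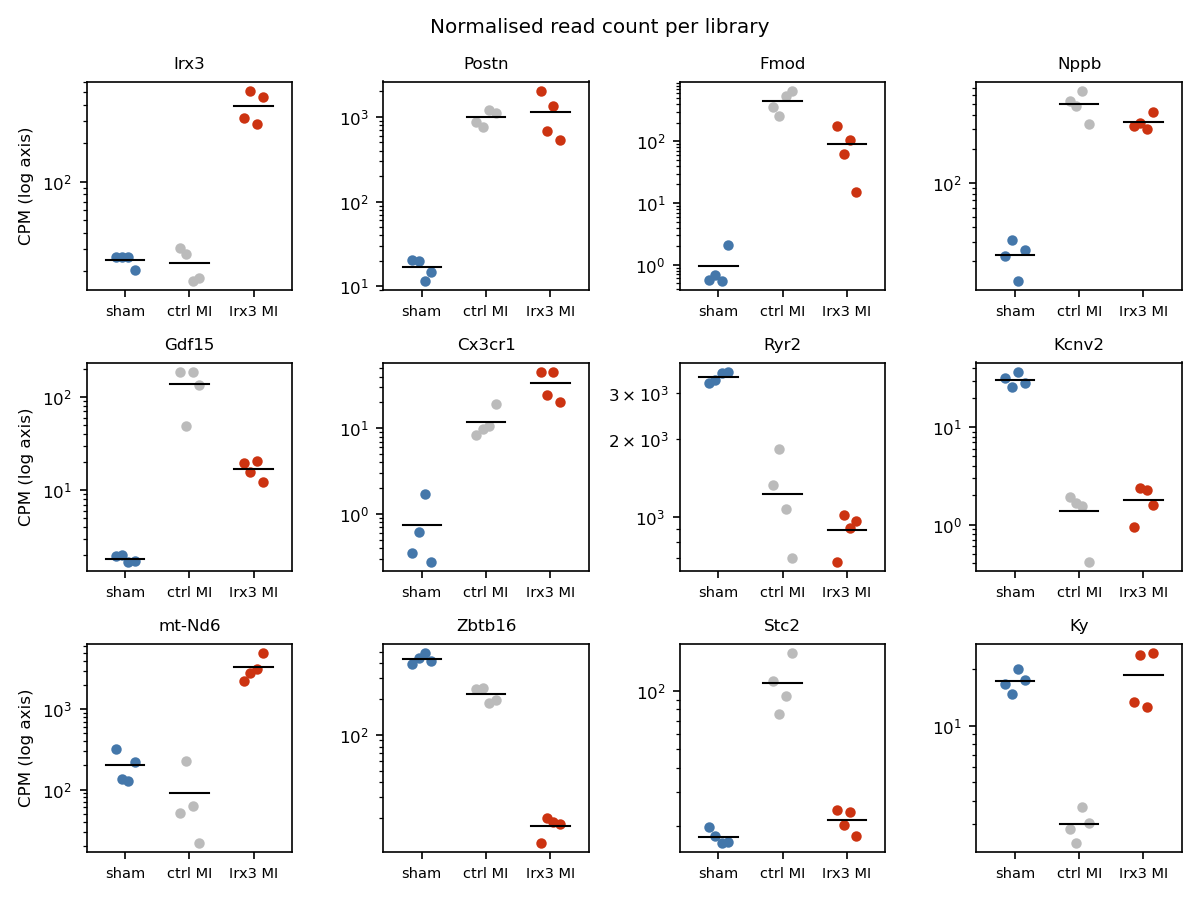
Normalised read count (CPM, log axis, its range differs by panel) of 12 genes in each library of sham, control vector with infarction (ctrl MI) and Irx3 vector with infarction (Irx3 MI); points are libraries and bars are means, n = 4. Fmod and Gdf15 with Irx3 vector lie between the other groups, Zbtb16 lies below both, and Stc2 and Ky lie near sham.

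Fuel and energy genes of the nucleus were mostly lower than in sham hearts. Of 32 fatty acid uptake and oxidation genes 27 were lower than sham and 0 higher (median -1.28), beside 27.7% lower over all genes tested. Of 18 TCA cycle genes 15 were lower and 0 higher, of 17 branched-chain amino acid oxidation genes 11 and 0, and of 43 nuclear genes of oxidative phosphorylation 31 and 0. The same lists with control vector after infarction had medians of -1.45, -1.21, -1.34 and -1.14, beside -1.28, -1.36, -1.04 and -1.30 with Irx3 vector. The lower levels of these genes ran with those of the cardiomyocyte markers (median -1.19), and the part of the markers in them was not tested. Ndufs7, a complex I subunit, fell by 2.59 on the log2 scale (GC-corrected -1.99), Ogdh and Idh3g of the TCA cycle by 1.82 and 1.61, and Bcat2, which starts branched-chain amino acid breakdown, by 1.83.

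Several fuel genes were lower than in both other groups. Pdk4, the kinase that blocks glucose oxidation in fasting muscle, was at 3065, 3341, 4299 and 3577 CPM in sham, 1724, 2499.7, 1309 and 717 CPM with control vector after infarction and 173, 237, 202 and 475 CPM with Irx3 vector. Ucp3, an uncoupling protein of muscle, was at 266, 245, 345 and 264, 98.2, 111, 39.8 and 22.4 and 4.39, 13.9, 5.61 and 19.5 CPM in the same order. In both genes every Irx3 library lay below every other library, with log2 differences for Pdk4 of -3.72 from sham and -2.53 from control vector (adjusted p = 1.09e-05 and 0.000258) and for Ucp3 of -4.70 and -2.65 (adjusted p = 1.97e-05 and 0.0012). Klf15, a transcription factor that drives fat and amino acid use in muscle, fell by 3.79 against sham and 2.23 against control vector on the log2 scale. Slc27a1, a fatty acid transporter, fell by 2.10, Acsm5 by 4.56, Plin4, a lipid droplet coat protein, by 2.88, and Esrra, a nuclear receptor of mitochondrial genes, by 1.85. Adh1, an alcohol and retinol dehydrogenase, fell by 3.94.

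Glucose uptake and glycolysis genes were lower in 15 of 26 (57.7%, beside 27.7% of all genes) and higher in 5 (19.2%, beside 35.2%). Their median was -0.79, beside -0.22 with control vector after infarction. The direct comparison called 9 lower and 2 higher (6 and 1 GC-corrected). Pfkl, a phosphofructokinase, fell by 1.47 against sham and 1.42 against control vector on the log2 scale, and Pkm, pyruvate kinase, by 1.28 and 0.79 (GC-corrected, -0.38 against control vector with adjusted p = 0.103). Of 10 genes of creatine, myoglobin and energy transfer 7 were lower and 2 higher. Ckm, the muscle creatine kinase, fell by 2.44, while Gatm, the first enzyme of creatine synthesis, rose by 3.13 (GC-corrected 2.46), as it did by 2.78 with control vector.

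Mitochondrially encoded transcripts were mostly higher than sham, while most nuclear genes of the same complexes were lower. Of 13 mitochondrially encoded mRNAs 8 were higher than sham and 0 lower, with a median of 1.54, and control vector after infarction had a median of -1.54. The count depended on the setting. GC correction left 4 higher with a median of 0.27, and leaving out sham replicate 2, 3 or 4 or Irx3 replicate 4 left 4 or 5. With no filter on low counts 4 were higher. These transcripts are poor in G and C (median 37.1%). The direct comparison with control vector called all 13 higher with Irx3 vector, and 10 GC-corrected. mt-Nd6, a complex I subunit and the only mRNA from the light strand of mitochondrial DNA, was at 319, 134, 127 and 219.8 CPM in sham, 51.8, 229, 62.2 and 21.8 CPM with control vector after infarction and 2235, 2827, 3139.9 and 4965 CPM with Irx3 vector. Every Irx3 library was far above the highest of the other 8 (log2 fold change 4.04, SE 0.64, adjusted p = 0.000138; 2.78 GC-corrected). mt-Co1, the catalytic subunit of cytochrome oxidase, was at 42110.5, 26112, 23977 and 37236 CPM in sham and 31704, 43373, 40191 and 70667 CPM with Irx3 vector, which overlap, and did not pass the test (0.52, adjusted p = 0.376; -0.57 GC-corrected). mt-Nd3 rose by 3.69 (2.44 GC-corrected; 4.28 without sham replicate 1) and mt-Atp8 by 3.54 (2.28 GC-corrected; 2.70 without Irx3 replicate 4; 4.24 without sham replicate 1).

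Mitochondrial tRNA and rRNA genes have products that carry short or no poly(A) tails. Of 24 such genes, 18 had enough counts in at least 1 group to be tested. Of these 18, 14 were higher than sham (77.8%, beside 35.2% of all genes) and 0 lower, with a median of 3.98. After GC correction 12 were higher and 1 lower (median 2.99). Genes near silent in both other groups, such as mt-Te, enter such a count only through the Irx3 libraries. mt-Te, the tRNA for glutamate, had 0 counts in sham and 5147 over the Irx3 libraries, at least 1398-fold higher against the floor of 3 counts, at 37.6, 70.5, 80.6 and 109 CPM in the 4 Irx3 libraries. With control vector after infarction it stood at 0, 0, 0.0569 and 0 CPM. mt-Tl1, a leucine tRNA, had 2 counts in sham, all in sham replicate 2, and 1437 with Irx3 vector, a ratio of 585 (95% counting interval 162 to 4839). Genes of the mitochondrial circle lie end to end on both strands, and since the strand setting of the counting is not given in the sources used here, reads from opposite strands cannot be told apart.

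**Figure D3:**
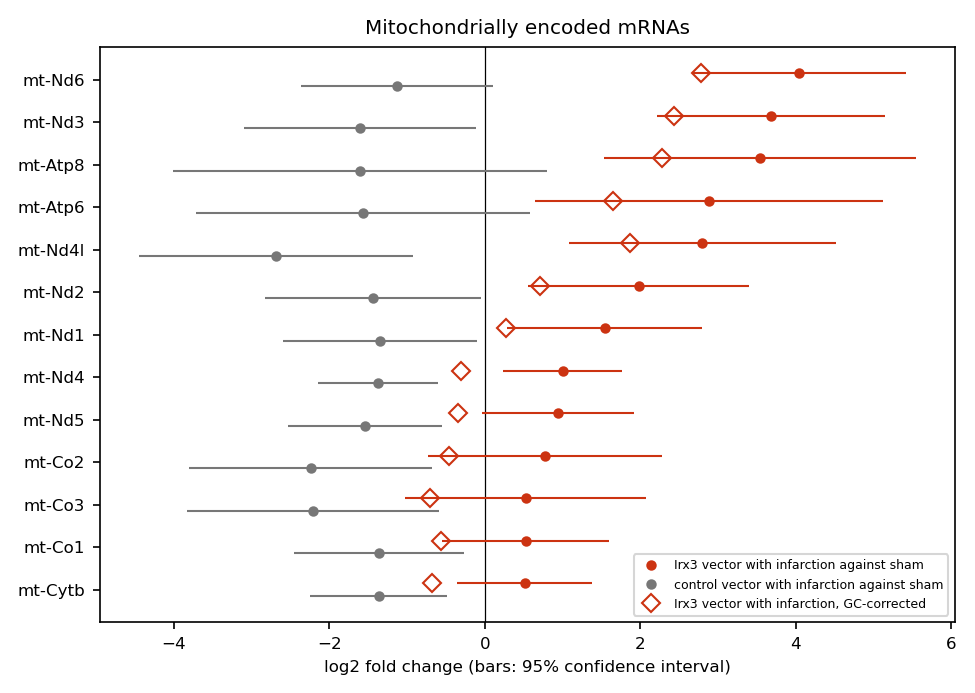
Log2 fold change of the 13 mitochondrially encoded mRNAs for Irx3 vector with infarction against sham (red points), with the GC-corrected value (open diamonds), and for control vector with infarction against sham (grey points); bars are 95% confidence intervals. mt-Nd6 is highest at 4.04, and all 13 grey points lie below 0 while all 13 red points lie above it.

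Glucocorticoid-responsive genes and metallothioneins were low with Irx3 vector. Adrenal glucocorticoid binds a receptor that switches on genes such as Fkbp5, Zbtb16, Sgk1 and Klf9, and metallothioneins bind zinc and respond to the same hormone and to stress. Of 12 such genes 9 were lower than sham and 0 higher, with a median of -1.69 beside -0.21 with control vector after infarction. In the direct comparison 10 were lower than with control vector and 0 higher, and 10 and 0 GC-corrected. Fkbp5, a co-chaperone of the glucocorticoid receptor, was at 193, 208, 178 and 202 CPM in sham, 263, 268, 277 and 324 CPM with control vector after infarction and 25.4, 22.5, 44.6 and 14.8 CPM with Irx3 vector. Zbtb16, a zinc finger transcription factor, was at 395, 439, 488 and 414, 245, 249, 187 and 197 and 12.4, 20.2, 18.6 and 17.9 CPM in the same order. Every Irx3 library was below every other library for both genes. Fkbp5 fell by 2.86 (SE 0.26, adjusted p = 2.9e-06) and Zbtb16 by 4.65 (SE 0.19, adjusted p = 2.33e-08) on the log2 scale against sham. Against control vector they were -3.40 and -3.67 (adjusted p = 7.13e-06 and 2.93e-07). Mt1, a metallothionein, was at 520.1, 838, 672 and 584 CPM in sham and 52.9, 68.3, 64.4 and 81.5 CPM with Irx3 vector (log2 fold change -3.29, SE 0.21, adjusted p = 3.97e-07), and Cdkn1a, the cell cycle inhibitor p21, at 142, 238, 244 and 191 and 45.96, 50.8, 58.8 and 41.96 CPM (log2 fold change -2.04, SE 0.19, adjusted p = 2.92e-06). Outside the list, Ddit4, an inhibitor of mTOR signalling, was at 393, 498, 679 and 484 CPM in sham and 29.7, 33.4, 32.5 and 22.1 CPM with Irx3 vector (log2 fold change -4.12, SE 0.22, adjusted p = 1.29e-07; -3.53 GC-corrected).

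Most clock genes were lower than sham, while the activators Arntl and Npas2 were higher. In the circadian clock the activators Arntl (also called Bmal1), Clock and Npas2 bind the E-box CACGTG and switch on Per and Cry genes, whose products then block them, so the arms peak at different times of day. The time of day at which hearts were taken is not given in the sources used here, and its part in these differences was not tested. Of 15 clock genes 9 were lower than sham and 3 higher, and against control vector 8 were lower and 3 higher (9 and 2 GC-corrected). The 3 above sham were the activators. After GC correction 10 were lower than sham and 3 higher, the latter being Arntl, Npas2 and the repressor gene Nr1d1 (0.27, adjusted p = 0.385 uncorrected; 0.78, adjusted p = 0.017 corrected). Arntl was at 3.44, 6.47, 8.12 and 7.65 CPM in sham, 4.22, 5.73, 5.01 and 4.701 CPM with control vector after infarction and 33.9, 17.1, 34.5 and 18.6 CPM with Irx3 vector, above every other library (log2 fold change 2.02, SE 0.29, adjusted p = 6.28e-05). Npas2 rose by 1.31 (GC-corrected 1.91) and Clock by 1.00, a call that was lost after GC correction (0.05, adjusted p = 0.771). Per2 was at 96.4, 96.7, 80.3 and 81.9 CPM in sham, 124, 91.7, 97.9 and 147 CPM with control vector after infarction and 8.49, 17.9, 15.5 and 5.7005 CPM with Irx3 vector, below every other library (log2 fold change -2.89, SE 0.30, adjusted p = 6.47e-06). Per1 was at 274, 289, 296 and 263, 289, 225, 229 and 298 and 36.1, 81.3, 58.6 and 37.4 CPM in the same order, again with no overlap (log2 fold change -2.39, SE 0.24, adjusted p = 4.77e-06). Cry2 fell by 1.83 on the log2 scale.

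The E-box stood in the 250 bases upstream of 4 of the 13 clock genes with a sequence in the RefSeq table (30.8%), in 9.69% of tested genes and in 6.02% of all windows. It stood upstream of 3 of 10 genes of the glucocorticoid list as well (30.0%), a share like that of the clock list. The glucocorticoid response element, searched as AGAACA and TGTTCT with 3 free bases between them, stood upstream of 1 of 10 genes of the glucocorticoid list, Sgk1, and in 0.0176% of tested genes. Sgk1, a kinase that controls ion channels, fell by 1.20 on the log2 scale (adjusted p = 4.12e-05). Both elements are palindromes, so a match reads the same on both strands apart from the free bases. The upstream windows of Per1 and Sgk1 are shown because each gene holds the element of its list, with the bases that match that element in capitals, 5′ to 3′ on build GRCm38.p6. The Sgk1 window also holds an E-box near its start, left in lower case. Per1 lies at chr11:69098699-69098948, plus strand, and Sgk1 at chr10:21993640-21993889, plus strand.
Per1: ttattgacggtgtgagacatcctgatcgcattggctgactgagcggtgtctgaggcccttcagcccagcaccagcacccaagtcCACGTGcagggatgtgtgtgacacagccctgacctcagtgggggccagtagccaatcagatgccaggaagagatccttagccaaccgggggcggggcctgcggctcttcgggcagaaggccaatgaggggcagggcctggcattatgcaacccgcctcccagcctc
Sgk1: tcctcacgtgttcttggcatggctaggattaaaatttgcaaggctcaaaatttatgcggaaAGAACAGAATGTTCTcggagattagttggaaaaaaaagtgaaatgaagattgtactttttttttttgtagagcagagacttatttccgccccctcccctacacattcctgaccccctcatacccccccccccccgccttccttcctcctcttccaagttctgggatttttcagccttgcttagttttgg
The palindrome ACANNTGT, bound by Iroquois proteins, was searched upstream of the tested genes with a sequence in the RefSeq table. It stood upstream of 4.43% of them, of 4.58% of those called higher and of 4.55% of those called lower. Of all windows 6.31% held it.

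**Figure D4:**
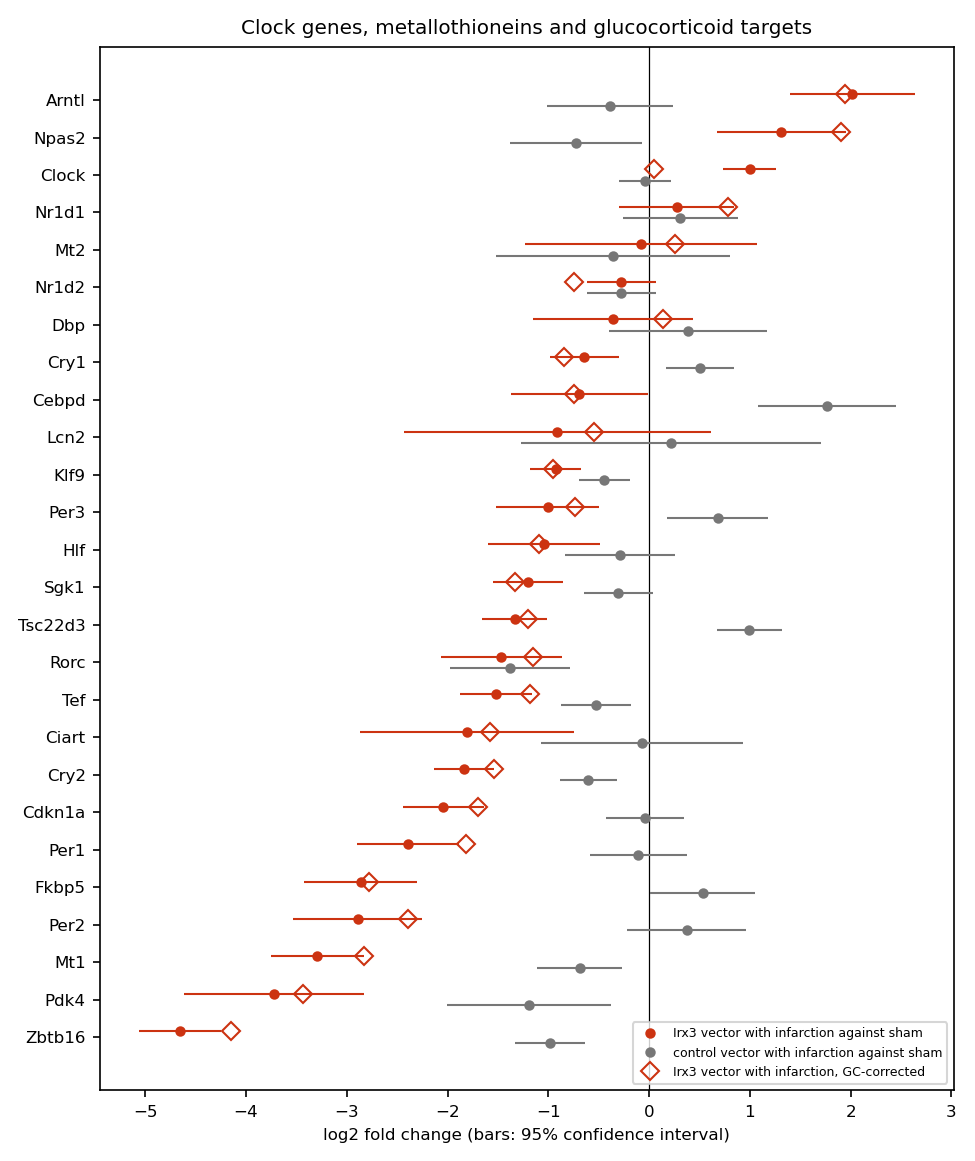
Log2 fold change of the clock genes, metallothioneins and glucocorticoid targets for Irx3 vector with infarction against sham (red points), with the GC-corrected value (open diamonds), and for control vector with infarction against sham (grey points); bars are 95% confidence intervals. Zbtb16 lies lowest at -4.65 and Arntl highest at 2.02, where control vector lies at -0.98 and -0.39.

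Vessel genes moved in both directions. Endothelial markers were lower than sham in 14 of 19 genes and higher in 2, with a median of -1.04 beside -0.38 with control vector after infarction. In the direct comparison 15 were lower with Irx3 vector and 3 higher (9 and 1 GC-corrected). Gpihbp1, which carries lipoprotein lipase across the capillary wall, was at 182, 216, 233 and 202 CPM in sham, 151, 137, 110.3 and 65.3 CPM with control vector after infarction and 25.5, 32.4, 32.03 and 55.6 CPM with Irx3 vector. Every Irx3 library was lowest (log2 fold change -2.52, SE 0.27, adjusted p = 9.21e-06). Esam, an adhesion protein of endothelial junctions, fell by 1.54 and Rgcc, a cell cycle regulator of endothelium, by 2.22 on the log2 scale. Lymphatic endothelial markers were higher in 4 of 7 (57.1%, beside 35.2% of all genes) and lower in 0 (3 and 1 GC-corrected). Smooth muscle and pericyte markers were higher in 2 of 14 (14.3%, beside 35.2% of all genes) and lower in 4 (28.6%, beside 27.7%), or 5 and 3 GC-corrected. Cnn1, the smooth muscle protein calponin, was at 0.772, 12.1, 12.2 and 4.03 CPM in sham, 7.25, 4.88, 11.1 and 22.4 CPM with control vector after infarction and 50.99, 98.7, 46.2 and 84.97 CPM with Irx3 vector, above every other library (it rose by 3.26, SE 0.64, adjusted p = 0.000668; 2.62, adjusted p = 0.00349 against control vector).

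Epicardial and mesothelial markers, genes of the outer lining of the heart, were higher in 10 of 12 and lower in 0 (median 3.41; 4.44 without sham replicate 4). Their summed level was 68.7 to 128 CPM with Irx3 vector and 13.7 to 28.8 CPM in sham. The keratin gene Krt8 was at 0.0702, 0.251, 0.205 and 0 CPM in sham and 3.95, 12.3, 7.73 and 7.75 CPM with Irx3 vector (log2 fold change 5.81, SE 0.67, adjusted p = 1.46e-05), and its partner Krt18 rose by 5.62. Both exceeded control vector after infarction, by 1.68 and 1.12 (adjusted p = 0.0101 and 0.0158). They were among the 3 of 12 list members called higher than with control vector, where 0 were lower. With control vector after infarction 9 of the 12 were higher than sham, with a list median of 3.67. The list's median in the direct comparison was -0.16. Schwann and nerve markers were higher in 1 of 7 and lower in 1, and of 5 red cell markers 0 were higher and 0 lower.

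Cell cycle genes were higher than sham in 29 of 39 and lower in 2 (median 1.24), and lower than control vector after infarction in 17 and higher in 4 (17 and 2 GC-corrected). Mki67, a marker of dividing cells, rose by 2.002 and the DNA topoisomerase gene Top2a by 2.70 (GC-corrected 2.01). Cytosolic ribosomal protein genes were higher in 7 of 49 (14.3%, beside 35.2% of all genes) and lower in 20 (40.8%, beside 27.7%). After GC correction 11 were higher and 14 lower, where all genes gave 32.4% and 22.9%. Against control vector 33 were lower and 1 higher (31 and 2 GC-corrected). Rpl38 was at 41.2, 57.2, 57.9 and 43.6 CPM in sham and 22.3, 18.7, 15.6 and 23.6 CPM with Irx3 vector, lower in every library (log2 fold change -1.32, SE 0.18, adjusted p = 5.35e-05). Rps24 went the other way, with a rise of 0.77 (adjusted p = 0.000171). Ribosomal protein genes have many near-identical pseudogenes, so their counts are uncertain.

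Stress genes were mixed. Integrated and unfolded protein stress genes were higher in 11 of 21 (52.4%) and lower in 3 (14.3%). Herpud1, which helps clear misfolded proteins from the endoplasmic reticulum, was among those that fell, at 789.6, 823, 892 and 1096 CPM in sham and 62.2, 101, 92.2 and 94.5 CPM with Irx3 vector (log2 fold change -3.36, SE 0.21, adjusted p = 3.38e-07), and so was Chac1, which degrades glutathione (-3.20). Antioxidant and ferroptosis genes were higher in 7 of 22 (31.8%) and lower in 7 (31.8%), near the 35.2% and 27.7% of all genes tested. Immediate early genes, switched on within minutes of a stimulus, were higher in 7 of 17 (41.2%) and lower in 2 (11.8%), or 10 and 1 GC-corrected. Egr2, 1 of these zinc finger factors, was at 0.632, 0.879, 0.4095 and 0.417 CPM in sham and 27.3, 13.5, 14.8 and 12.5 CPM with Irx3 vector, with Irx3 replicate 1 highest (log2 fold change 4.84, SE 0.39, adjusted p = 1.41e-06), and Egr3 rose by 3.82.

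Several lists held only a few members that moved in a given direction, some of them against the rest, and these are named after their values were seen. Among macrophage and monocyte markers Cd163, the haemoglobin scavenger receptor of resident macrophages, was the 1 that fell (log2 fold change -1.72, SE 0.29, adjusted p = 0.000243). It was at 68.8, 68.6, 51.7 and 72.2 CPM in sham and 13.9, 21.9, 18.9 and 24.7 CPM with Irx3 vector. Among B and plasma cell markers the 1 that fell was Mzb1 (-1.13, or -0.64 with adjusted p = 0.121 after GC correction), and among fetal and wall-stress genes it was Fhl1 (-0.38, adjusted p = 0.148 after GC correction). Neither kept its call after that correction, and Fhl1 also missed it without sham replicate 2 (-0.22, adjusted p = 0.16). Ltbp1, which anchors latent TGF-beta in the matrix, was the 1 matrix glycoprotein gene that fell (-0.64), and Timp3, an inhibitor of matrix proteases, fell by 0.94 on the log2 scale. The 2 lipid-associated macrophage genes that fell were Plin2, a lipid droplet coat protein (-0.96), and the lysosomal protease gene Ctsd (-0.59, adjusted p = 0.349 after GC correction).

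Pln, the inhibitor of the calcium pump of the sarcoplasmic reticulum, was the 1 cardiomyocyte marker that rose (1.77, or 1.08 with adjusted p = 0.0955 after GC correction). Its adjusted p was 0.0573, 0.0635 and 0.0562 without sham replicates 2 and 3 and Irx3 replicate 4 in turn. In the sarcomere list the 3 that rose were Myh7, the light chain gene Myl1 (1.90) and Nebl (0.64, or -0.11 with adjusted p = 0.615 after GC correction). Without sham replicates 2, 3 and 4 and Irx3 replicates 2, 3 and 4 in turn, the adjusted p of Nebl was 0.0763, 0.0836, 0.0723, 0.0834, 0.0951 and 0.0701. The 4 cardiac transcription factors that rose were Gata4 (0.52), Tbx20 (1.03), Mef2a (0.87, or 0.28 GC-corrected) and Mef2c (0.81), and the call on Mef2c was lost after GC correction (adjusted p = 0.0633). Among endothelial markers Kdr, a receptor for VEGF, rose by 0.82 and Emcn, a sialomucin of capillary and venous endothelium, by 0.87. After GC correction Kdr was at 0.70 (adjusted p = 0.00934) and the call on Emcn was lost (0.20, adjusted p = 0.199). The 2 neutrophil markers that rose were Csf3r, the receptor for granulocyte colony-stimulating factor (2.19), and S100a8 (2.58, adjusted p = 0.147 after GC correction). The call on S100a8 was lost without any 1 of the 8 libraries except Irx3 replicate 4, with its highest adjusted p without Irx3 replicate 1 (0.18), and that on Csf3r was lost without sham replicate 1 or 3 or Irx3 replicate 1 or 3 (adjusted p = 0.0584, 0.054, 0.0792 and 0.0558).

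Among the remaining genes with the largest falls, Fam107a, an actin-binding stress protein, was at 61.1, 50.6, 38.8 and 56.9 CPM in sham, 38.2, 48.3, 34.2 and 23.5 CPM with control vector after infarction and 0.987, 1.68, 2.34 and 0.7601 CPM with Irx3 vector (log2 fold change -5.14, SE 0.32, adjusted p = 3.38e-07). Map3k6, a stress kinase, fell by 3.19 against sham (-2.59 GC-corrected) and Cdh22, a cadherin, by 4.42. Lrrc52, a modulator of potassium channels, fell by 5.03. Fam107a, Map3k6 and Cdh22 were each lower in all 4 Irx3 libraries than in the 8 other libraries, as 12.2% of genes tested were. On the high side, where 16.7% of genes lay above all 8 other libraries, the long non-coding RNA ENSMUSG00000121092 was at 0.562, 0.314, 0.137 and 0.487 CPM in sham and 10.6, 10.6, 13.8 and 19.5 CPM with Irx3 vector (log2 fold change 5.16, SE 0.41, adjusted p = 1.4e-06). This RNA was not among the genes matched to a GC content, so it has no corrected value. Gm4841, an unnamed predicted gene, rose by 9.57 (8.64 GC-corrected; 8.48 without Irx3 replicate 3; 11.79 without sham replicate 2).

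Some genes that infarction moved with control vector stood near sham with Irx3 vector. They were picked by a rule: called between control vector with infarction and sham, called between the vectors after infarction, and within 1.5-fold of sham with Irx3 vector. Their nearness to sham and their difference from control vector follow from that rule, so the values below describe them and test neither. How many genes met the rule was not counted. Stc2, a secreted glycoprotein hormone, was at 19.7, 17.8, 16.3 and 16.5 CPM in sham, 112, 76.2, 93.7 and 157 CPM with control vector after infarction and 24.2, 20.1, 23.5 and 17.6 CPM with Irx3 vector. The difference from sham was 0.28 (95% interval -0.13 to 0.70, adjusted p = 0.215) and that from control vector -2.36 (adjusted p = 9.78e-06). Ky, a protease-like gene of muscle, was at 16.6, 14.8, 19.9 and 17.5 CPM in sham, 2.83, 2.38, 3.701 and 3.05 CPM with control vector after infarction and 13.4, 23.8, 12.6 and 24.4 CPM with Irx3 vector, differing from sham by 0.11 (95% interval -0.37 to 0.59). Slc1a5, a glutamine transporter, differed from sham by 0.53, which passed the test after GC correction (0.89, adjusted p = 0.0335) and without Irx3 replicate 4 (0.77). These 3 genes were chosen after their values were seen. Of genes at lower expression, the epithelial factor Grhl2 was at 1.19, 1.38, 0.683 and 1.39 CPM in sham, 0, 0.06099, 0.0569 and 0 CPM with control vector after infarction and 0.543, 1.48, 1.25 and 2.13 CPM with Irx3 vector. The skeletal muscle genes Atp2a1, Mylpf and Tnni2 met the same rule through 1 infarcted library with control vector, where Atp2a1 was at 182 CPM beside 0.517 to 5.01 CPM in the other 3, and Il1r2 through another.

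By gene class, 433 of 999 transcription factor genes in the authors' annotation were higher than sham (43.3%) and 228 lower (22.8%). Over all genes tested the shares were 35.2% and 27.7%. After GC correction 352 of 996 were higher and 183 lower, where all genes gave 32.4% and 22.9%. The C2H2 zinc finger family had 231 of 454 higher (50.9%) and 82 lower (18.1%), and 135 and 65 after GC correction, and its median moved from 0.54 to 0.23. The homeobox family, to which Irx3 belongs, had 16 of 48 higher (33.3%) and 8 lower (16.7%), or 22 and 9 GC-corrected. Uncorrected, neither share exceeded that of all genes tested. After GC correction the share of homeobox genes higher was above the 32.4% of all genes, and the share lower was below the 22.9%. Long non-coding RNAs were higher in 325 of 1189 (27.3%) and lower in 210 (17.7%), or 232 and 154 of 932 GC-corrected. Protein-coding genes were higher in 4999 of 13646 (36.6%) and lower in 3922 (28.7%), near the shares of all genes tested. Processed pseudogenes, copies of spliced mRNAs, were higher in 89 of 532 (16.7%) and lower in 168 (31.6%).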

How the data were processed

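Polyadenylated RNA of 12 mouse left ventricles was sequenced. The deposited table holds raw counts for each gene and library, which the authors made from reads trimmed with fastp on build GRCm39, per the submitters' processing notes; the sources used here do not give the aligner, counter, annotation or strand setting. Totals were 13352604 to 19236721 counts. Symbols repeated in the table (882 rows) stayed as separate features. Groups came from the library titles.

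Counts were tested in edgeR 4.0.16 (R 4.3.3): TMM factors, filterByExpr by group, quasi-likelihood test, 1 term per group over all 12 libraries (9 residual degrees of freedom), Benjamini-Hochberg adjustment over 15742 genes, calls at 0.05. The libraries of a group are separate mice, with 1 batch label for all. SE is the log2 fold change divided by the root of F; intervals are 95%. The GC correction fits a natural spline (6 degrees of freedom) of each library's log2 CPM deviation on GC content of transcripts in GENCODE M21 (GRCm38; 15182 genes matched by symbol), as an offset; only names and base composition were taken from that build, and promoter letters from RefSeq GRCm38.p6. CPM of single values was also compared by exact permutation over 70 assignments. Counting intervals and floors cover counting error only. Named genes were Irx3, the 12 largest rises and falls among calls without overlap whose log2 CPM averaged 2 or more, the 3 members of each of 47 lists with the smallest p, the 6 genes per direction furthest from both other groups, and the 8 genes that infarction moved most with control vector and that differed between vectors while within 1.5-fold of sham; a part of these is printed, with a few added members. The comparison, lists and rules were chosen with earlier results of these data known. Alternatives were RLE and upper-quartile factors, DESeq2 1.42.0, no filter or a CPM of 1 in 4 libraries, only the 2 groups, mitochondrial genes removed, a replicate block, the GC correction, both together, glmTreat against 1.5-fold, and each library left out. Steps were tested on simulated data. Some items withheld from the text are not reported here.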

Additional observations from a re-analysis of the deposited data

Results flagged for a closer look

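In each group of 4 libraries, the CPM of 149 genes and the mitochondrially encoded share of counts were checked for a library whose gap to its nearest neighbour was too large a share of the group's range by Dixon's test at 95%. Of 296 groups tested (4 more had no spread) 31 had such a library. Chance gives about 1 in 20 only for normally distributed values, which genes near 0 counts do not have, so the 31 cannot be set against that rate. In sham, C1qtnf3 and Col6a5 (1 count each) and mt-Tl1 (2 counts, all in 1 library) met the rule through counting alone. Sham replicate 2 stood high for Spp1 (1.256 CPM, next 0.07021), Mmp12 (0.5652), Gm4841 (0.4396), Col11a1 (0.1884), mt-Tl1 (0.1256), Thbs4 (11.49), Nppa (97.52, next 19.96), Irx5 (8.164), Gja1 (186.6), Fhl1 (233.5, next 163.3) and Cdh22 (17.39). Sham replicate 3 stood high for Cacna1c (778.6 CPM), Ndufa1 (222.4), Slc27a1 (736.9), Rgcc (84.16) and Prox1 (65.46) and low for Top2a (1.092). Sham replicate 1 stood high for Ighm (4.493 CPM) and for C1qtnf3 and Col6a5 (0.07021 CPM each, 1 count). Sham replicate 4 stood low for Irx3 (20.51 CPM, next 25.62) and high for Fmod (2.086).

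Among the Irx3 libraries, replicate 1 stood high for Spp1 (475.5 CPM, next 25.57), Mmp12 (139.2, next 24.52), Col11a1 (49.56, next 3.159), C1qtnf3 (26.8, next 4.739), Mmp13 (4.097) and Egr2 (27.3), and low for Scara5 (6.269, next 18.09). Replicate 3 stood high for Mx1 (24.46 CPM) and replicate 4 for mt-Atp8 (32.38 CPM, next 9.769).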

How the results depend on the processing

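The 9904 calls against sham stayed within 1.5 times under every alternative except glmTreat against a 1.5-fold change, which by its construction keeps fewer (5535 genes, 3457 higher and 2078 lower). Between 8808 and 9382 of them kept their direction with 1 library left out, and 9688 did with DESeq2. The share of mitochondrially encoded counts was 5.77 to 8.63 percentage points higher than sham with 1 library left out, with an exact p of 0.0571, the smallest that 4 against 3 allows. Correlations of same-numbered libraries ran from -0.0925 to 0.0796, within the -0.155 to 0.209 of the other pairs. No pairing of mice by the labels' replicate numbers was seen, though so few pairs cannot exclude a weak one. With the replicate block 9077 genes were called, 9047 of them as before, and with block and GC correction 7539. The block left 5 of 13 mitochondrially encoded mRNAs higher and no filter 4, in place of 8. With block and GC correction together mt-Atp8 (adjusted p = 0.0662) and Mef2a also missed the threshold. Prox1, Rps24, Timp3, Fhl1, Mzb1, Pln, Nebl, Kdr, Gata4, Ltbp1, S100a8 and Ctsd missed it under glmTreat, S100a8 also with RLE factors, Fhl1 with upper-quartile factors, Fhl1 and Nebl with the block, and Ighg2b, Fhl1, Mzb1, Pln, S100a8 and Csf3r with no filter. Nebl turned from 0.64 to a value below 0 with GC correction (-0.1096) and with block and GC correction (-0.1145), uncalled in both; no value named in the text turned its direction while called in the alternative. Low sham counts limit the size of the largest rises: genes at 0 counts in sham are given as bounds, those at 1 to 3 counts as ratios with a counting interval, and others, such as Spp1 and Gm4841, as fitted values.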
